A study of Glycine max with 6 samples.

Results

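Zinc finger proteins of the C2H2 class carry small folds in which a pair of cysteines and a pair of histidines hold a zinc ion, and they bind DNA. SCOF-1 is a soybean member of the class, a nuclear protein whose gene is induced by cold and by abscisic acid. It is known to raise the binding of the bZIP factor SGBF-1 to the abscisic acid response element. The ZAT proteins are members of the class described in Arabidopsis, where many of their genes respond to cold, drought, salt and reactive oxygen. Many ZAT proteins end in an EAR motif, a short leucine-rich stretch through which they recruit TOPLESS-type corepressors and lower transcription.

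The transcripts described here are those of SCOF-1, of a ZAT11-like gene and of a further C2H2 zinc finger gene, measured in the pigmented seed coat (testa) of soybean. They are represented by 5 of the 37641 soybean probe sets of the GeneChip Soybean Genome Array, a probe set being a group of short oligonucleotides that together measure 1 transcript. Probe sets Gma.235.1.S1_at, Gma.235.1.S1_x_at and Gma.235.2.S1_a_at carry the gene symbol SCOF-1 in the array annotation. Probe set Gma.17736.1.S1_at is annotated to LOC100526897 and described as ZAT11-like, and Gma.4334.1.S1_at has no gene in that annotation and is described by the study as a C2H2 zinc finger. All but Gma.235.2.S1_a_at were selected on the contrast described below, because the study listed them as more than 2-fold higher in black than in brown seed coats. Gma.235.2.S1_a_at was included through its symbol alone. The differences of these 5 probe sets are therefore given as descriptions without a test.

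Seed coats were taken from 3 black (iRT) and 3 brown (irT) plants, all untreated and of the variety Clark, when fresh seeds weighed 300 to 400 mg (the transition stage). The nearly isogenic lines differ in the allele of the R locus, R in black and r in brown. They share the i allele, which permits pigment over the whole seed coat, and the T allele, which encodes a functional flavonoid 3′-hydroxylase. The comparison addresses which transcripts differ between seed coats that form anthocyanins and seed coats that do not, and each genotype is represented by 1 line, so that other loci at which the lines differ cannot be told apart from R. Labelled RNA was made from 100 ng of each plant's RNA by in vitro transcription over 16 h and hybridized to 1 array per plant, and values are log2 signals after RMA, the summary of probes over jointly normalized arrays.

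Median signals of the soybean probe sets were 5.76 to 5.91 over the 6 arrays, and arrays correlated at 0.983 to 0.996. The 95th percentile of the 23394 probe sets for pathogens of soybean, at 3.54 to 3.78, served as background level, and 67.1% to 70.1% of soybean probe sets lay above it. Of the 6 probe sets annotated to the seed coat genes Ep, SCB1, HPS, PRP2 and ANR1, only ANR1, an enzyme of proanthocyanidin synthesis, lay near background, with 1 of 6 plants above it. With limma and p-values adjusted by Benjamini-Hochberg, 25 of the 37641 soybean probe sets were higher in black seed coats (0.0664% of those tested) and 16 lower (0.0425%) at an adjusted p under 0.05. The p-values measure the spread between these plants, and the number of arrays limits the precision.

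The study designed a pair of primers for each of the 3 transcripts. They are shown because they are the sequence that ties each probe set to its transcript in the sources used here. The study reports that semi-quantitative RT-PCR bore out the array differences of all the genes it selected for that check. Its figure legend names SCOF-1 (Gma.235.1.S1_at) and the ZAT11-like set Gma.17736.1.S1_at among them, and does not name Gma.4334.1.S1_at. Those RT-PCR results were not examined here. In the forward primer ZF of the ZAT11-like gene, capitals mark bases 6 to 23, counted from the 5′ end. Read in that frame, the capitals are leucine codons that alternate with other codons and end at a stop codon, the arrangement of an EAR motif at the end of a protein. All other bases are in lower case.
SCOF-1 forward primer STFF: agatcgaaatcccccaattt
SCOF-1 reverse primer STFR: tgcaaatctgccactgttgt
ZAT11-like forward primer ZF: tggacTTGGAGTTACACCTGTAGata
ZAT11-like reverse primer ZR: caatgatctttataagggaaaagtca
C2H2 zinc finger (Gma.4334.1.S1_at) forward primer ZF2F: actgttggtggtccacgatt
C2H2 zinc finger (Gma.4334.1.S1_at) reverse primer ZF2R: aaggccaaatcctcgttctt

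The arrangement searched for was leucine, any residue, leucine, any residue, leucine and stop, in every frame of both strands of each primer. It was present in 1 of the 70 distinct primers of the study (1.43%), the ZAT11-like forward primer. The match describes these letters, and the reading frame of the transcript was not analysed here. In the RefSeq annotation (Glycine max v4.0), SCOF-1 lies on chromosome 17 with a gene length of 1147 bases, and LOC100526897 lies on chromosome 3 with a gene length of 816 bases. 

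SCOF-1 signal was higher in the black than in the brown seed coat at each of its 3 probe sets, by 1.71-fold to 2.02-fold. With Gma.235.1.S1_at, the 3 black plants gave 8.92, 9.41 and 9.30 and the 3 brown plants gave 8.49, 7.65 and 8.42. The groups did not overlap, with 0.42 between the lowest black and the highest brown plant. The means were 9.21 ± 0.26 in black and 8.19 ± 0.47 in brown seed coats (SD, n = 3 each), a log2 difference of 1.02 (SE 0.24) or 2.02-fold. Plant 2 of the brown line was the lowest of the 6, and the other two brown plants lay within a narrow range of each other.

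The set Gma.235.1.S1_x_at, whose suffix marks probes that may also bind other transcripts, gave 9.05, 9.53 and 9.24 in black plants and 8.60, 7.77 and 8.43 in brown plants. Its groups were likewise separate, with a gap of 0.45. Black averaged 9.27 ± 0.24 and brown 8.27 ± 0.44 (SD, n = 3 each), and the log2 difference was 1.01 (SE 0.23), or 2.01-fold. This was the member nearest to the inside of the 2-fold threshold.

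Gma.235.2.S1_a_at, whose suffix marks probes shared by transcripts of 1 gene, lay below that threshold. Its signals were 9.57, 10.08 and 9.75 in black plants and 9.25, 8.78 and 9.06 in brown plants. The gap between the groups was 0.33, and the means were 9.80 ± 0.26 in black and 9.03 ± 0.24 in brown seed coats (SD, n = 3 each). The log2 difference was 0.77 (SE 0.17), or 1.71-fold. The 3 sets measure 1 gene on the same 6 arrays and are not replicates of each other.

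The widest separation was that of the ZAT11-like gene. Arabidopsis ZAT11 is known for a part in root growth and nickel tolerance, and the role of the soybean gene in the seed coat is not known from the sources used here. Gma.17736.1.S1_at gave 6.44, 6.66 and 7.11 in black plants and 5.43, 4.21 and 5.01 in brown plants. All 6 signals were above background, and the lowest black plant exceeded the highest brown plant by 1.01. Black averaged 6.74 ± 0.34 and brown 4.88 ± 0.62 (SD, n = 3 each), a log2 difference of 1.86 (SE 0.32) or 3.62-fold.

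The C2H2 zinc finger Gma.4334.1.S1_at was the least well separated of the 5. Its signals were 5.03, 5.81 and 5.87 in black plants and 4.92, 3.47 and 4.01 in brown plants, so that black plant 1 and brown plant 1 lay only 0.11 apart. Brown plant 2 was below the background level of its array, and the other 5 plants were above theirs. The means were 5.57 ± 0.47 in black and 4.13 ± 0.73 in brown seed coats (SD, n = 3 each), a log2 difference of 1.44 (SE 0.38) or 2.71-fold. A set with the same stem, Gma.4334.2.A1_at, was below background in all 6 plants, at 3.45, 3.53 and 3.26 in black and 3.05, 2.94 and 2.89 in brown, and gives no fold.

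**Figure D1:**
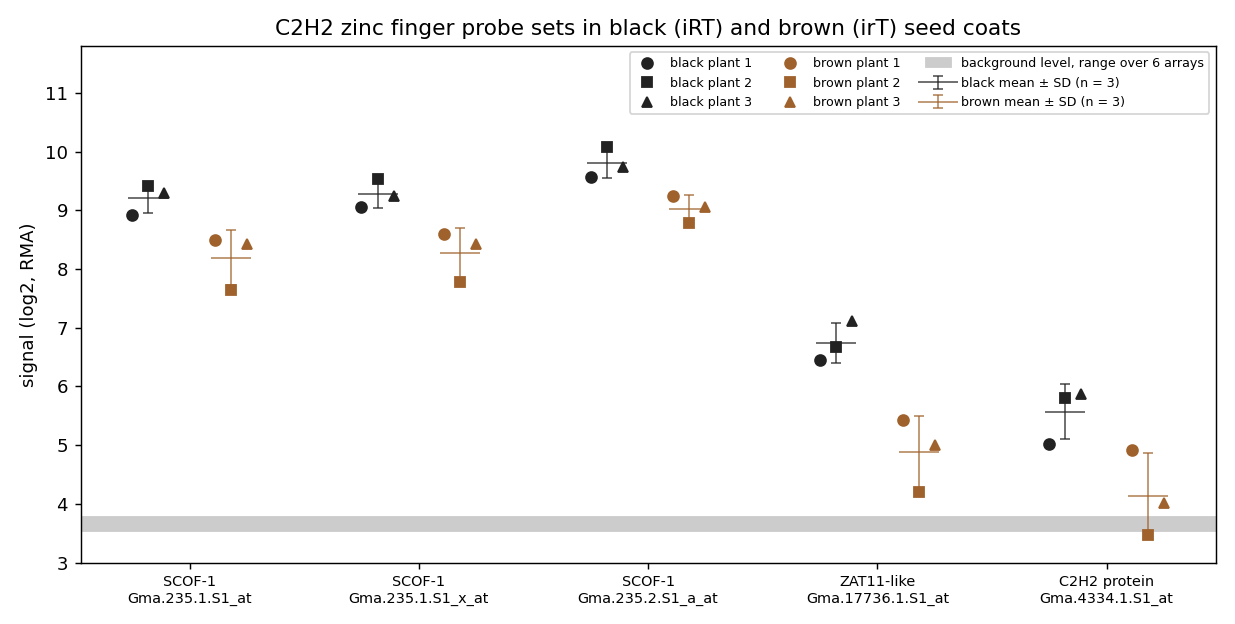
Log2 RMA signal (vertical axis) of the 5 C2H2 zinc finger probe sets in each plant, with black (iRT) points left of brown (irT) points, bars for the mean ± SD of 3 plants and a grey band for the background level of 3.54 to 3.78. In each set all black plants lie above all brown plants, from a gap of 0.11 in Gma.4334.1.S1_at to 1.01 in the ZAT11-like set, and brown plant 2 (square) is the lowest.

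Each of the 5 sets thus had every black plant above every brown plant, an order found in 2159 soybean probe sets (5.74%), and 4 of the 5 exceeded 2-fold, as did 324 soybean probe sets (0.861%). None of the 5 was among those called by limma at an adjusted p under 0.05. The counts of separated and of 2-fold sets reflect that 4 of the 5 were chosen on this contrast. The absence of limma calls does not follow from that choice. In bulk tissue, fewer cells of a type and less RNA per cell cannot be told apart.

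The plants of a genotype differed among themselves in the same way at the 5 sets. In all 5, brown plant 2 was the lowest plant, brown plant 1 was the highest of the brown plants and black plant 1 was the lowest of the black plants. Brown plant 2 was the lowest plant in 6294 of all soybean probe sets (16.7%), and in 820 of the 2159 with every black plant above every brown plant (38.0%). Black plant 1 was the lowest black plant in 654 of those 2159 (30.3%). Black plant 2 was the highest plant at the SCOF-1 sets, and black plant 3 at the ZAT11-like and Gma.4334.1.S1_at sets.

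The spread within genotypes was wide for most of these transcripts. Pooled over both genotypes, the within-group SD was 0.50 for the ZAT11-like set and 0.62 for Gma.4334.1.S1_at, larger than in 98.1% and 98.7% of soybean probe sets. It was 0.38 for Gma.235.1.S1_at and 0.35 for Gma.235.1.S1_x_at, larger than in 95.4% and 94.3%. At 0.25, Gma.235.2.S1_a_at exceeded 81.3%, and the median over soybean probe sets was 0.15.

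Leaving out plants in turn showed how far each difference rested on 1 plant. Without brown plant 2, the log2 difference was 0.75 for Gma.235.1.S1_at (1.68-fold), 0.76 for Gma.235.1.S1_x_at (1.69-fold) and 1.11 for Gma.4334.1.S1_at (2.15-fold). For the ZAT11-like set it was 1.52 (2.87-fold). Both SCOF-1 sets that had exceeded 2-fold with all plants were below it without brown plant 2. Without black plant 2 they were below it too, at 1.89-fold for Gma.235.1.S1_at and 1.84-fold for Gma.235.1.S1_x_at. Gma.235.1.S1_at was also below it without black plant 3 (1.96-fold). The highest values came without brown plant 1, at 1.17 for Gma.235.1.S1_at, 2.13 (4.38-fold) for the ZAT11-like set and 1.83 (3.55-fold) for Gma.4334.1.S1_at. Gma.235.2.S1_a_at ranged over 0.63 to 0.88 on the log2 scale.

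**Figure D2:**
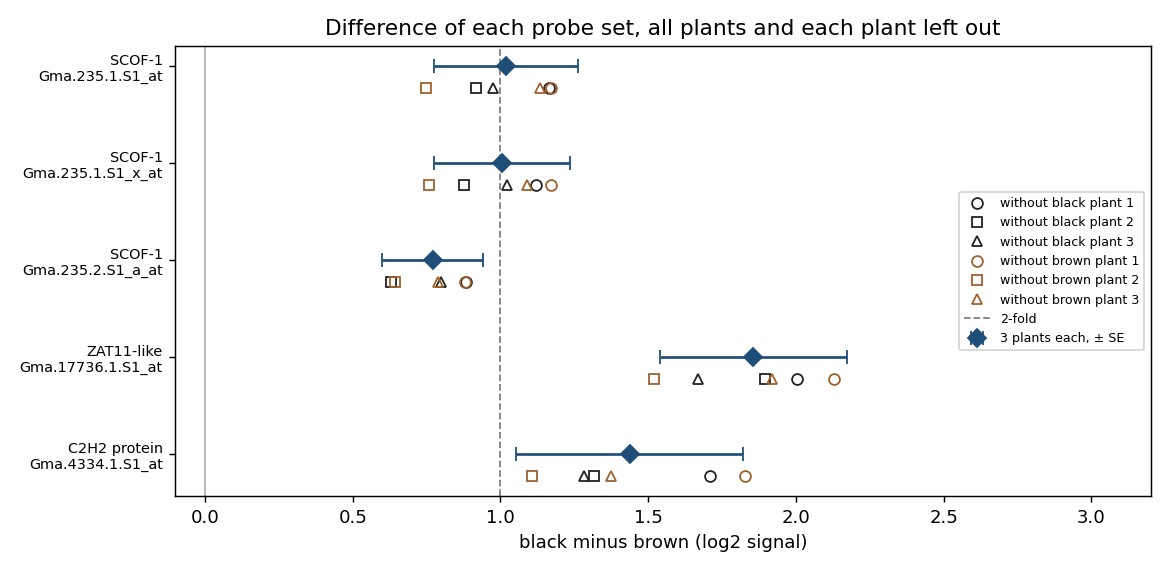
Black minus brown difference in log2 signal (horizontal axis) of each probe set with all plants (diamond, ± SE) and, just beneath it, with each plant left out (open symbols), and a dashed line at 2-fold. The ZAT11-like set stays between 1.52 and 2.13, while Gma.235.1.S1_at falls on either side of the line, between 0.75 and 1.17.

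Signals were centred on their mean over the 6 plants to compare profiles, with the root mean square difference as the measure of likeness, where 0 is identity. Gma.235.1.S1_at and Gma.235.1.S1_x_at differed by 0.07, and their distances from Gma.235.2.S1_a_at were 0.20 and 0.17. The ZAT11-like and Gma.4334.1.S1_at profiles differed by 0.30. Gma.235.1.S1_at was 0.35 from Gma.4334.1.S1_at and 0.47 from the ZAT11-like set. The profiles have 6 points each and share the arrays.

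The same measure was used to find, among 25872 other soybean probe sets with a mean above background, the 5 nearest to each of the 5 sets. These came to 19 distinct probe sets, of which 11 were in the lists of the study and 6 were near more than 1 zinc finger set. All 19 were lowest in brown plant 2. Since the nearest sets were chosen for their likeness, their levels are given without a test. The distance counts the size of a difference, so sets near a strongly differing zinc finger set also exceed 2-fold, which the study required for its lists. The count of 11 follows from that choice and is not a result. Over all soybean probe sets, 0.861% exceeded 2-fold in black.

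The profile nearest to Gma.235.1.S1_at was that of a LEA_2 family transcript, GmaAffx.80258.1.S1_at, at a distance of 0.08. Its signals were 6.98, 7.34 and 7.29 in black plants and 6.62, 5.65 and 6.30 in brown plants. A pair of sets of LOC100776488 was also among the 5, at 0.09 and 0.13, and one of them is described by the study as similar to Arabidopsis GH3.1, GH3 enzymes being known to join auxin to amino acids. Its set Gma.9611.1.A1_at gave 5.47, 5.93 and 5.67 in black plants and 4.81, 4.36 and 4.84 in brown plants. The unannotated Gma.17837.1.S1_at, at 0.09, and GmaAffx.5393.1.S1_at, at 0.12, completed the 5. Gma.235.1.S1_x_at had 4 of these among its own 5, with GmaAffx.71666.1.S1_at as the other.

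Gma.235.2.S1_a_at had other neighbours, none of them listed by the study. The nearest was Gma.5293.1.S1_a_at at 0.05, with 12.72, 13.14 and 12.94 in black plants and 12.36, 11.91 and 12.28 in brown plants. Next came GmaAffx.14681.1.S1_at and a set of LOC100816039, both at 0.07, and the 2 sets of LOC100500357, both at 0.09.

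The ZAT11-like and Gma.4334.1.S1_at sets shared their nearest profile, GmaAffx.62542.1.S1_at, an uncharacterized clone. It stood at 0.17 from the ZAT11-like set and 0.23 from Gma.4334.1.S1_at. Its signals were 6.77, 6.89 and 7.22 in black plants and 6.03, 4.67 and 5.48 in brown plants, so that black plant 3 was highest and brown plant 2 lowest, as in both zinc finger sets. Both also had a phosphate-induced protein (PHI-1), GmaAffx.30537.1.S1_at, as the next nearest, at 0.27 and 0.25. PHI-1 proteins are related to EXORDIUM of Arabidopsis, which promotes growth. It averaged 5.83 in black and 4.34 in brown seed coats.

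Xyloglucan endotransglycosylases, which cut and rejoin the xyloglucan of the cell wall, were near both of these sets. Gma.4027.1.S1_at and GmaAffx.24571.1.S1_s_at, both described as TCH4, were at 0.28 and 0.29 from the ZAT11-like set. Gma.4027.1.S1_at averaged 6.67 in black and 5.02 in brown seed coats. Another such enzyme (XET), Gma.3526.1.S1_at, was at 0.25 from Gma.4334.1.S1_at and averaged 5.97 in black and 4.66 in brown seed coats. The other near sets were LOC100527223 at 0.28 from the ZAT11-like set, and LOC100817853 at 0.26 and Gma.17440.1.S1_at at 0.29 from Gma.4334.1.S1_at. Distances to the nearest sets were larger here than for SCOF-1, as were the differences between the genotypes.

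**Figure D3:**
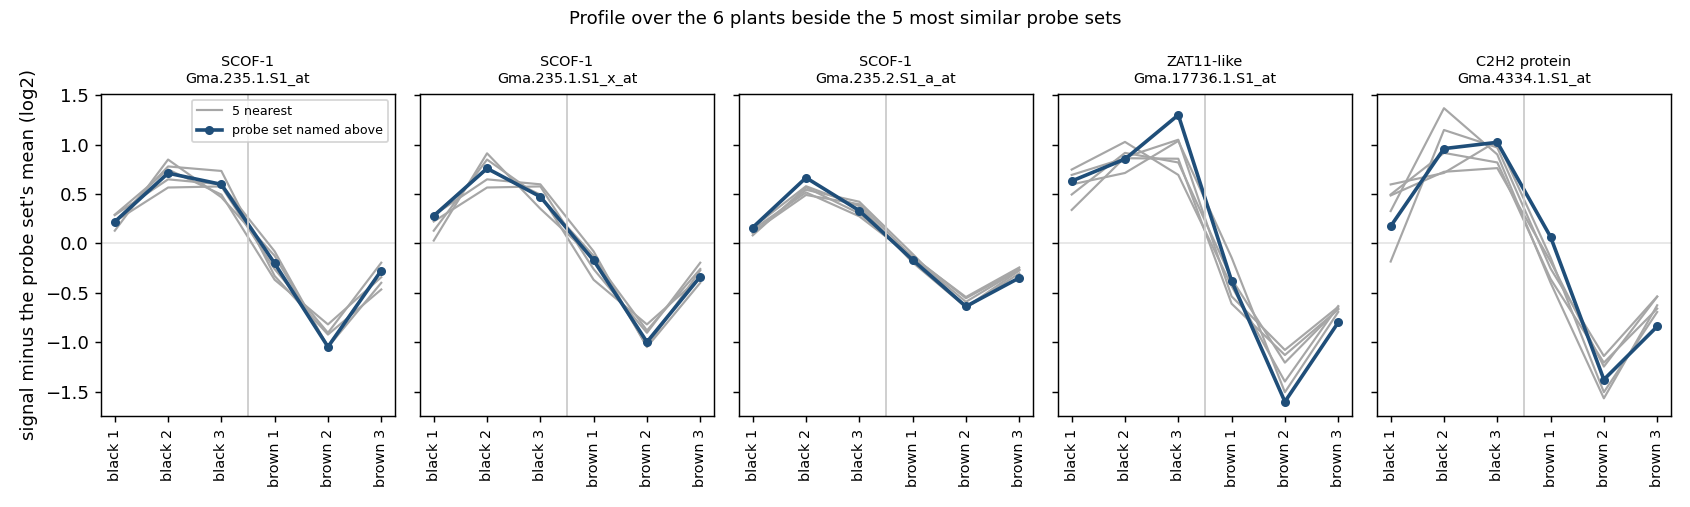
Signal minus its mean over the 6 plants (log2, vertical axis) of each C2H2 zinc finger probe set (blue) and its 5 nearest soybean probe sets (grey), with black plants left of the line and brown plants right of it; lines between plants only guide the eye. Every profile has its lowest point in brown plant 2, and the grey lines lie closest to Gma.235.2.S1_a_at, from 0.05 to 0.09 away.

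Genes beside SCOF-1 and the ZAT11-like gene in RefSeq order were examined up to 5 genes away on each side, where 1 neighbour of each had a probe set with a single symbol. LOC100807528, next to the ZAT11-like gene, averaged 10.75 ± 0.10 in black and 10.73 ± 0.01 in brown seed coats (SD, n = 3 each; adjusted p = 0.971, limma). LOC100527002, 3 genes from SCOF-1, averaged 3.69 ± 0.98 in black and 3.44 ± 0.19 in brown seed coats (adjusted p = 0.907, limma), with 2 of 6 plants above background. Neither neighbour passed the test.

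The other genes of the pathways around these factors were taken from lists of gene symbols. By the same limma test none of their probe sets rose or fell in black seed coats at an adjusted p under 0.05. The median difference over all soybean probe sets was -0.02, and 3131 of the 37641 had an unadjusted p under 0.05, of which 1158 were higher and 1973 lower in black seed coats. The single other probe set with a zinc finger symbol, ZFP1, averaged 5.72 ± 0.22 in black and 5.55 ± 0.06 in brown seed coats (SD, n = 3 each; adjusted p = 0.756). Its groups overlapped. Symbols of abscisic acid genes and of corepressors matched no probe set.

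G-box factors are bZIP proteins of the kind to which SGBF-1, the partner of SCOF-1, belongs. The list held 2 probe sets, both of GBF2. Gma.8072.1.S1_a_at gave 5.54, 5.60 and 5.59 in black plants and 5.75, 5.88 and 5.83 in brown plants, with every brown plant above every black plant, an order found in 3123 soybean probe sets (8.30%). Its log2 difference of -0.24 did not pass the test (adjusted p = 0.549, limma), and it was the 1 of the 2 with an unadjusted p under 0.05. The other, Gma.8072.2.A1_at, went the opposite way and averaged 3.92 in black and 3.56 in brown seed coats (adjusted p = 0.703, limma). Its groups overlapped, and it lay near background, with 4 of 6 plants above it.

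Of 21 probe sets for 14 symbols of the cold and dehydration response, 16 were above background in at least 1 plant. The median log2 difference was 0.13, with a range of -0.34 to 0.47, and 2 had an unadjusted p under 0.05, both higher in black. In 5 of the 21 every black plant was above every brown plant (5.74% over all soybean probe sets), 2 of these being below background in all plants. DREB3, a factor of the family that binds the dehydration response element, averaged 11.24 ± 0.17 in black and 10.92 ± 0.03 in brown seed coats (SD, n = 3 each), a log2 difference of 0.32 (adjusted p = 0.532). SRC2, a soybean cold-regulated gene, averaged 9.30 ± 0.10 in black and 9.03 ± 0.11 in brown seed coats (difference of 0.27 on the log2 scale, adjusted p = 0.569). COR2 averaged 9.75 in black and 9.49 in brown seed coats (adjusted p = 0.607).

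Enzymes that remove peroxide and superoxide gave a median of -0.08 over 16 probe sets for 8 symbols, with a range of -0.70 to 0.09. In 3 of them every brown plant was above every black plant (8.30% over all soybean probe sets), and 2 had an unadjusted p under 0.05, both lower in black. The ascorbate peroxidase APX2, at GmaAffx.89703.1.A1_at, gave 10.40, 10.62 and 10.91 in black plants and 11.03, 11.18 and 10.96 in brown plants (log2 difference -0.42, adjusted p = 0.549). APX1, at GmaAffx.86592.2.S1_at, averaged 7.87 ± 0.26 in black and 8.44 ± 0.39 in brown seed coats (adjusted p = 0.570). The superoxide dismutase SODB, at Gma.3233.1.S1_at, averaged 6.21 ± 0.68 in black and 6.90 ± 0.17 in brown seed coats (adjusted p = 0.618), and its groups overlapped. Other sets of these genes differed less. Their log2 differences were -0.28 to 0.06 for APX1, -0.20 and -0.16 for APX2 and -0.07 for SODB.

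Symbols of storage and maturation proteins were listed as possible markers of the embryo, which lies inside the seed coat. On balance the sets of this list were higher in black seed coats, as were the zinc fingers, without passing the test. Some were bright and nearly level instead, such as LEA-2, which averaged 11.88 in black and 11.96 in brown seed coats. Whether each set of the list measures RNA of the embryo or of the seed coat itself was not tested. Over 53 probe sets for 39 symbols of storage, maturation and late embryogenesis proteins, 50 were above background in at least 1 plant. The median log2 difference was 1.09, with a range of -0.63 to 2.10. Storage proteins went both ways. Glycinin sets ranged from -0.10 (GY2) to 1.93 (GY7), and both CG-BETA-1 sets were lower in black, at -0.63 and -0.26. None rose or fell by limma. An unadjusted limma p under 0.05 was found in 4, all higher in black, against 3131 of all 37641 soybean probe sets in either direction. In 3 every black plant was above every brown plant (5.74% over all soybean probe sets). The summed signal of the list, on the log2 scale, was 14.80 to 15.77 in black and 14.69 to 14.99 in brown plants. Signals were summed before the log, so bright sets such as PM37, at 13.30 to 13.57 over the 6 plants, weigh most in it. MP2 averaged 6.87 ± 0.56 in black and 5.78 ± 0.52 in brown seed coats (SD, n = 3 each; log2 difference 1.09, adjusted p = 0.502). PM35, a seed maturation protein, averaged 7.57 ± 0.08 in black and 7.30 ± 0.14 in brown seed coats (SD, n = 3 each; adjusted p = 0.571), with every black plant above every brown plant. CG-1, a conglycinin, had 2 sets in the list, of which Gma.8746.1.S1_at was below background in all 6 plants and the other was above it in 3 plants. The order over plants was not that of the zinc fingers. The mean centred signal of the list was 1.61, 0.46 and -0.67 in black plants 1 to 3 and -0.47, 0.07 and -1.01 in brown plants 1 to 3, so it was highest in black plant 1, where each zinc finger set had its lowest black value. In black plant 3 the list lay below brown plants 1 and 2, and the ZAT11-like and Gma.4334.1.S1_at sets had their highest value there. The part of embryo RNA in the zinc finger differences was not tested.

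The 6 seed coat sets had a median log2 difference of 0.00, and their summed signal was 14.55 to 15.88 in black and 14.59 to 15.50 in brown plants. HPS, the hydrophobic protein of the seed surface, averaged 13.91 ± 0.16 in black and 14.05 ± 0.16 in brown seed coats (SD, n = 3 each; adjusted p = 0.790). The proline-rich cell wall protein PRP2 varied most within genotypes. At Gma.79.1.S1_s_at it gave 14.35, 13.87 and 10.44 in black plants and 12.40, 13.69 and 7.60 in brown plants (adjusted p = 0.816), lowest in plant 3 of each genotype rather than in brown plant 2. At Gma.79.1.S1_x_at it averaged 12.96 ± 1.82 in black and 11.60 ± 2.87 in brown seed coats (adjusted p = 0.830). The part of plant-to-plant variation in the zinc finger differences was not tested.

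**Figure D4:**
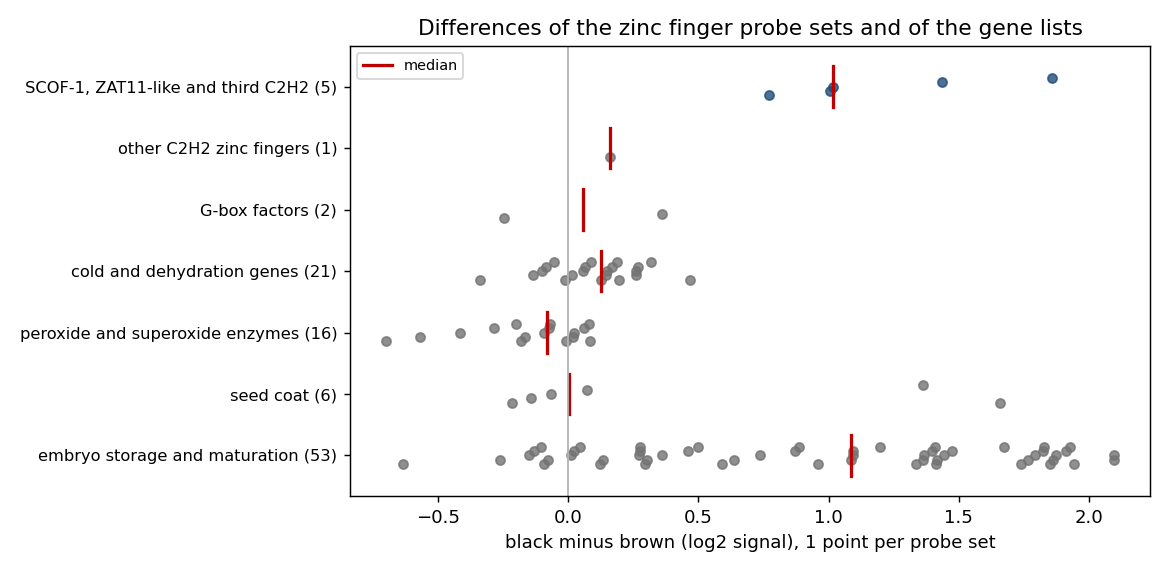
Black minus brown difference in log2 signal (horizontal axis), 1 point for each probe set and a red line at the median of each row, for the 5 C2H2 zinc finger probe sets (blue) and for each gene list (grey, number of probe sets in parentheses). The zinc finger sets lie from 0.77 to 1.86, the cold and dehydration genes from -0.34 to 0.47 and the peroxide and superoxide enzymes from -0.70 to 0.09, while the embryo list has a median of 1.09.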

How the data were processed

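The authors hybridized seed coat RNA of 6 plants to 6 arrays, and the deposited values are log2 signals from RMA (background adjustment, normalization across arrays and summary of probes) in the FlexArray software, whose version is not given in the sources used here. RMA sets the arrays to a common distribution, so signals are relative. Tables of the authors' own comparisons (fold changes, scores and p-values) were not used.

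Black was compared with brown in R 4.3.3 by limma 3.58.1 (functions lmFit and eBayes, default settings, two-sided, 3 plants each, prior degrees of freedom 3.175), with Benjamini-Hochberg adjustment over 37641 soybean probe sets, of which 8677 carry 1 gene symbol, 370 several and 28594 none. SEs are moderated. Folds are black over brown. Lists were matched to symbols only, and the annotation matched 2 of the 3 genes to RefSeq. In each list the 3 probe sets with the smallest p were to be named, and for each zinc finger set the 5 nearest profiles. The members and lists were chosen with earlier results of these data known. The background level is the 95th percentile of pathogen probe sets (23394 of 61170 on the array). The pipeline was tested on simulated data. Alternatives were median centring, cyclic loess, a filter for dim probe sets (above background on at least 3 arrays), all probe sets fitted, no sets ending in _s_at, _x_at or _a_at, trend and robust settings, array weights, a replicate block, each plant left out, a 99th percentile and another distance. Python 3.11.15, numpy 2.4.6, pandas 2.3.3 and matplotlib 3.10.9 were used for summaries and plots.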

Additional observations from a re-analysis of the deposited data

How the results depend on the processing

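Since the groups did not overlap at any zinc finger set, leaving out a plant could not turn the direction of its difference, and filters, variance settings and the block leave the difference as it is, so none of these bears on stability. Median centring, cyclic loess and array weights can change it, and over these the difference of Gma.235.1.S1_at was 0.86 to 1.07. The lists gave no call under any alternative, and neither did the zinc finger sets. With plants left out, the differences ranged from 0.75 to 1.17 for Gma.235.1.S1_at, 0.76 to 1.17 for Gma.235.1.S1_x_at, 0.63 to 0.88 for Gma.235.2.S1_a_at, 1.52 to 2.13 for the ZAT11-like set and 1.11 to 1.83 for Gma.4334.1.S1_at. With array weights the SCOF-1 set Gma.235.1.S1_x_at was 1.81-fold higher in black. Sets Gma.235.1.S1_x_at and Gma.235.2.S1_a_at have no value without sets ending in _x_at or _a_at.

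Counts over all soybean probe sets depended more on the setting. Median centring gave 39 and trend and robust settings 40 that rose, against 25. Leaving out a plant gave 9 to 20 that rose and 4 to 13 that fell. Without brown plant 1 it was 9 and 4, without brown plant 3 it was 10 and 4, without black plant 1 it was 13 and 8, without brown plant 2 it was 11 and 11, and without black plant 3 only 10 fell. Replicate numbers are shared between genotypes, and the deviations of same-numbered plants correlated at 0.09, 0.29 and 0.50. Plants of different numbers were not compared in this way, so whether the numbers pair plants was not tested. With the replicate number as a block, 14 rose and 9 fell.

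All 5 zinc finger sets had every black plant above every brown plant after median centring too. At the 95th percentile background, 29 of the 30 zinc finger signals were above it, and 27 at the 99th. With mean absolute difference as the distance, Gma.4334.1.S1_at kept 3 of its 5 nearest sets, Gma.235.1.S1_x_at 4 and the other zinc finger sets 5. The cause of these shifts was not tested. With 3 plants per genotype, differences can go undetected, and even the 3.62-fold difference of the ZAT11-like set was not called by limma. The absence of a call therefore does not exclude a difference. Signals near background are compressed.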
